A study of Mus musculus with 6 samples.

Results

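The clade B serpins (Serpinb genes) and the tissue kallikreins Klk4 to Klk14 are 2 families of protease control genes. Some members are known from squamous epithelium and others from other cells or tissues. RNA of both families was measured here in PDVC57 cells, an established mouse squamous carcinoma line of keratinocyte origin, that differed in the transcription factor Sox2. Members were chosen by a rule on names, with earlier results of these data known. It took every gene in the count table whose symbol is Serpinb, a number and at most 1 letter, or Klk and 4 to 14. This gave 38 genes of 55385, of which 27 were Serpinb and 11 Klk genes. The 6 libraries fall into 2 groups of 3, labelled Sox2 KO (knockout, the gene disrupted) and Sox2 overexpression (additional Sox2 supplied). Both groups are the same cell line, and no untreated parental line was among the samples analysed here. The series' design text describes cells low or high in Sox2 that were isolated from tumours grown from grafts, to find how Sox2 in tumour stem cells acts on neutrophils. The labels do not say which vector or promoter drove Sox2, whether a line is 1 clone, or how many animals stand behind a library, so the p-values measure only the spread between these libraries, which may be technical.

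Clade B serpins lack a secretion signal of the usual kind and act mostly inside cells. An inhibitory serpin offers a reactive centre loop to a protease and, once cut, traps it in a covalent complex. Different members bind different proteases: granzymes and neutrophil elastase, urokinase, or cathepsins of the lysosome. The kallikreins are secreted serine proteases, and in the outer epidermis they cut the proteins that hold corneocytes together and activate protease-activated receptors and cytokines.

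Library totals lay between 31247976 and 38543221 counts, and levels are given in CPM, counts scaled to a common library size after TMM normalization. Sox2 itself had 49, 34 and 25 counts in the knockout libraries and 2566, 3790 and 4095 in the overexpression libraries, without overlap. Its log2 fold change was 6.58 (SE 0.33, edgeR adjusted p = 2.29e-06), where a fold change is always overexpression over knockout and SE is the standard error. The label of an epithelial line was checked on a list of 28 epithelial genes, which were all above the low-count filter. Their summed level was 7595 to 12009 CPM with knockout and 18692.5 to 24239 CPM with overexpression, and 21 of the 28 were higher in the edgeR test. The knockout libraries also held RNA of fibroblast markers: all 10 of the list fell, from 53173 to 81041 CPM with knockout to 246 to 388 CPM with overexpression, and none was at 0. White blood cell markers summed to 37.5 to 267 CPM with knockout, highest in replicate 3, and to 8.37 to 11.2 CPM with overexpression, with 4 of 5 lower. T and NK cell markers (7 of 9 tested lower) summed to 14.7 to 149 CPM and 2.20 to 5.68 CPM, endothelial markers (8 of 9 lower) to 43.8 to 149 CPM and 13.8 to 20.6 CPM, and mast cell and basophil markers (3 of 3 lower) to 14.6 to 15.4 CPM and 0.366 to 0.632 CPM, with Cpa3, Fcer1a and Mcpt4 at 0 in the overexpression libraries. Macrophage markers (2 of 7 lower) summed to 15.8 to 26.1 CPM and 13.9 to 28.0 CPM. Csf1r (mean 6.42 CPM with knockout and 11.6 CPM with overexpression, not called) and Cd68 (6.13 and 8.62 CPM, not called) held most of the overexpression sum. Every other gene of that list had a lower mean with overexpression, such as Lyz2 with 4.65 and 0.508 CPM. Neutrophil markers summed to 34.0 to 68.0 CPM with knockout and 586 to 3087 CPM with overexpression (of 4 tested, 1 higher and 1 lower, Csf3r with a log2 fold change of -2.46), of which Ltf, a gene that glandular and squamous epithelium also express, held nearly all. Elane was at 0 in the knockout libraries and S100a9 and Retnlg were at 0 in the overexpression libraries. A list of 20 genes of suprabasal keratinocytes, the layers that differentiate, summed to 738 to 1008 CPM with knockout and 3623 to 4637 CPM with overexpression. Of its 19 tested genes 13 were higher and 1, Sbsn, lower (log2 fold change -1.16). Krt6a (mean 161 CPM with knockout and 1732 CPM with overexpression) and Krt17 (596 and 1317 CPM) held most of the sum in both groups. Krt10 had a log2 fold change of -1.22 and was not called. Krt1, not tested, had 1, 91 and 589 counts with knockout and 6, 0 and 3 with overexpression. In bulk RNA, fewer cells of a type and less RNA per cell cannot be told apart. Nor can marker RNA from other cells be told from marker RNA made by the carcinoma cells themselves. What either contributes to the members' values was not tested. Since marker levels differed, a named gene's fold change below is also given after scaling libraries to the epithelial list where that changes the call.

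The members lie in 3 clusters (positions from GENCODE M21 on GRCm38, the assembly that the submitters' mm10 names). A group of 12 Serpinb genes spans 749 kb of chromosome 1 (106861173 to 107610484), 15 Serpinb genes span 1161 kb of chromosome 13 (32842092 to 34002794), and the 11 Klk genes span 195 kb of chromosome 7 (43690418 to 43885804). The promoters of 6 chromosome 1 genes are shown first, since these are the members of that cluster that passed the low-count filter and they moved together, as described below. Each runs from 250 bases before to 50 bases after a RefSeq transcription start (GRCm38.p6, plus strand, 5′ to 3′). In chromosomal order they are Serpinb5 at chr1:106860925-106861224, Serpinb11 at chr1:107362064-107362363, Serpinb7 at chr1:107422439-107422738, Serpinb2 at chr1:107511173-107511472, Serpinb10 at chr1:107528753-107529052 and Serpinb8 at chr1:107589756-107590055. Capitals mark matches to TGANTCA, a pattern that takes in TGACTCA, the site bound by the AP-1 factors of the Fos and Jun families, and also its forms with another central base, which are not that site.
Serpinb5: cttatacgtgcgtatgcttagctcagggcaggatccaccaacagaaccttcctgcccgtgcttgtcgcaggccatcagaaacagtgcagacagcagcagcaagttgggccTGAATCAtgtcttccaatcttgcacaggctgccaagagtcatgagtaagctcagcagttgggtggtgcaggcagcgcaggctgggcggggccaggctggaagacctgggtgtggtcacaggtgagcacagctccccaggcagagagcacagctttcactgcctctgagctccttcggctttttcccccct
Serpinb11: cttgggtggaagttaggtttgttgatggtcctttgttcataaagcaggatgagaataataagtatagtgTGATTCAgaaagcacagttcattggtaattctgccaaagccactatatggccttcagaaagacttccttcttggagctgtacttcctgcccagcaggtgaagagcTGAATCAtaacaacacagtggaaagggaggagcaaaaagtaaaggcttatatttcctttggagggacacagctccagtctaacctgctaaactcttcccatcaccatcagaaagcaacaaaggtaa
Serpinb7: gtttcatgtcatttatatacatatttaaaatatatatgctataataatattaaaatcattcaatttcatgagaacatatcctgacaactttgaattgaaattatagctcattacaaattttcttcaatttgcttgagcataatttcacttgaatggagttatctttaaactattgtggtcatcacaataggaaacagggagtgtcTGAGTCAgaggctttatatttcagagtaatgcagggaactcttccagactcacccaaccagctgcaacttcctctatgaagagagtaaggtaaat
Serpinb2: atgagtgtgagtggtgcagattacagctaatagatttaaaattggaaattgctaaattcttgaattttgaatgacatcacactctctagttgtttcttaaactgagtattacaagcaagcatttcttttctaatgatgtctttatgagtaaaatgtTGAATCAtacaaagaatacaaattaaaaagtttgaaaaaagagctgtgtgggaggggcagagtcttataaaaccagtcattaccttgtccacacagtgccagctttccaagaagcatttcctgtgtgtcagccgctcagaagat
Serpinb10: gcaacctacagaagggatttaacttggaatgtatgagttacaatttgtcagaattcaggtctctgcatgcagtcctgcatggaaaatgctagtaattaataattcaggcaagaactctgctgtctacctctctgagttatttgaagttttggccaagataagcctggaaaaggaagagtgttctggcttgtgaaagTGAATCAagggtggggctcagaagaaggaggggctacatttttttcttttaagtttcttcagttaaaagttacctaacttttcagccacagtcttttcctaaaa
Serpinb8: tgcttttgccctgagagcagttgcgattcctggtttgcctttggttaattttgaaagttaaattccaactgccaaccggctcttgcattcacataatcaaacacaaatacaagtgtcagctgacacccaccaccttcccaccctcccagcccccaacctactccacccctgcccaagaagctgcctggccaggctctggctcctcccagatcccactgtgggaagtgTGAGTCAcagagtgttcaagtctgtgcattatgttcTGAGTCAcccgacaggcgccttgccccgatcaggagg
All 6 of these promoters hold the wider pattern, at 2 positions in Serpinb11 and Serpinb8, but only those of Serpinb7 and Serpinb8 hold TGACTCA itself, read on either strand. RefSeq promoters were matched for 36 of the 38 members (not Serpinb13 and Serpinb1a). The pattern TGANTCA, searched on both strands, was in a promoter of 7 of the 11 matched chromosome 1 genes, of 0 of the 14 on chromosome 13 and of 0 of the 11 on chromosome 7, where 7.81% of 32851 RefSeq promoters of the same length hold it. TGACTCA was in a promoter of 2 of the 11 on chromosome 1 and in none of the others, where 5.20% of all promoters hold it. The seventh gene with the wider pattern is Serpinb12, which had at most 12 counts in a library. The letters TATAAA, on either strand and at any position, were in a promoter of 7 of the 11 chromosome 1 genes. These were Serpinb2, Serpinb3a to Serpinb3d, Serpinb7 and Serpinb12, and 13.6% of all promoters hold the letters. Serpinb3d and Serpinb7 hold them only on the strand opposite to the gene. The letters ACAATG, a core that Sox factors bind, were in a promoter of 4 members (Klk6, Serpinb1c, Serpinb6d and Serpinb9c) and in 12.6% of all promoters. A member counts here if any of its promoters matches, while the shares over all are per promoter. Per promoter, TGANTCA was in 8 of 44 member promoters, TGACTCA in 2, TATAAA in 11 and ACAATG in 5. Some promoters of a gene overlap, so these numbers count some sites more than once. The same TGANTCA and TATAAA matches lie in both Serpinb2 promoters, and the same ACAATG match in both Serpinb6d promoters. All of these are matches of letters and not measured sites. The promoters shown and the patterns searched were chosen with earlier results of these data known. The matches are thus a description and no test of a feature shared by the genes that rose.

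Of the 38 members, 19 passed the low-count filter and were tested. In the edgeR quasi-likelihood test, 8 of these were higher and 2 lower with overexpression at an adjusted p under 0.05, where 13.6% of all 18504 tested genes were higher, 18% lower and 31.6% called in either direction. Their median log2 fold change was 0.65, against -0.016 over all tested genes. Groups did not overlap in CPM for 13 of the 19, a state that held for 50.9% of all tested genes. Serpinb7 and Serpinb11 passed the filter only through the overexpression libraries, and Serpinb9e and Serpinb9g only through the knockout libraries, so that these 4 had to differ to be tested. All 6 tested Serpinb genes of chromosome 1 were higher. Of the 10 tested on chromosome 13, 1 was higher and 2 were lower, and of the 3 tested Klk genes 1 was higher. Summed over the cluster, the chromosome 1 genes held 64.5 to 97.7 CPM with knockout and 182 to 338 CPM with overexpression. The chromosome 13 genes held 474 to 563 CPM and 425 to 513 CPM, with overlap between the groups.

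**Figure D1:**
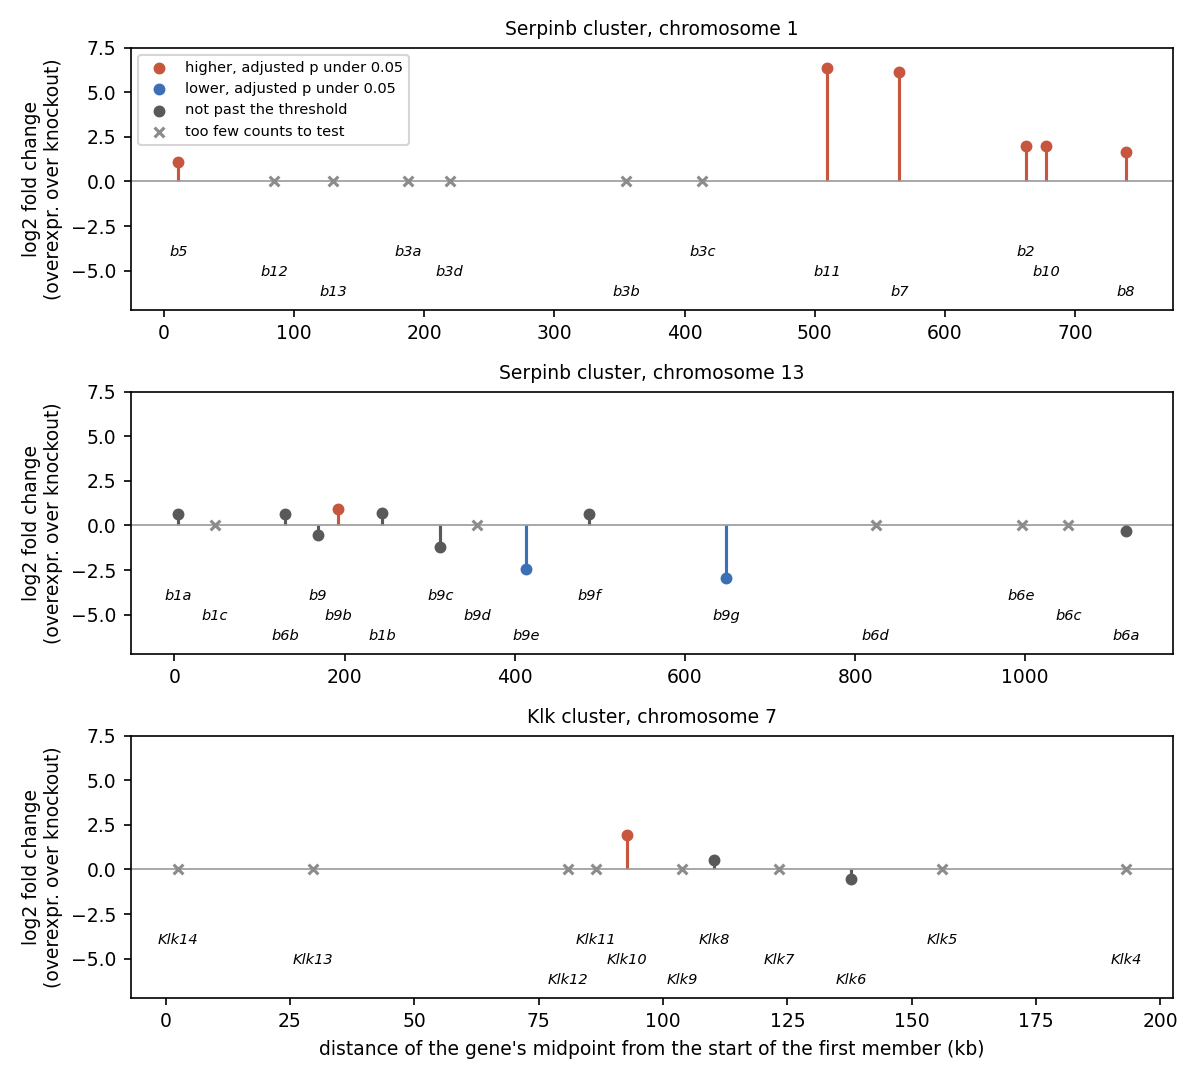
Log2 fold change (overexpression over knockout) of each member against the distance of its midpoint from the start of the first member in its cluster, in kb, with crosses for members with too few counts to test. The 6 tested chromosome 1 members are all above 0 and past the threshold, while the chromosome 13 members lie on both sides of 0.

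When the libraries were instead scaled to the epithelial list, the median over every tested gene moved (in log2 fold change) from -0.016 to -1.18 and the share of calls that were higher from 43.1% to 2.43%. Under that scaling 2 Serpinb members were higher (Serpinb7 and Serpinb11) and 4 lower (Serpinb6a, Serpinb9, Serpinb9e and Serpinb9g), with no Klk member past the threshold. Over all tested genes 1.85% were higher and 74.4% lower. Serpinb7, Serpinb11, Serpinb9e and Serpinb9g had to differ to be tested, as given above. No member that passed the filter through both groups was higher under this scaling.

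**Figure D2:**
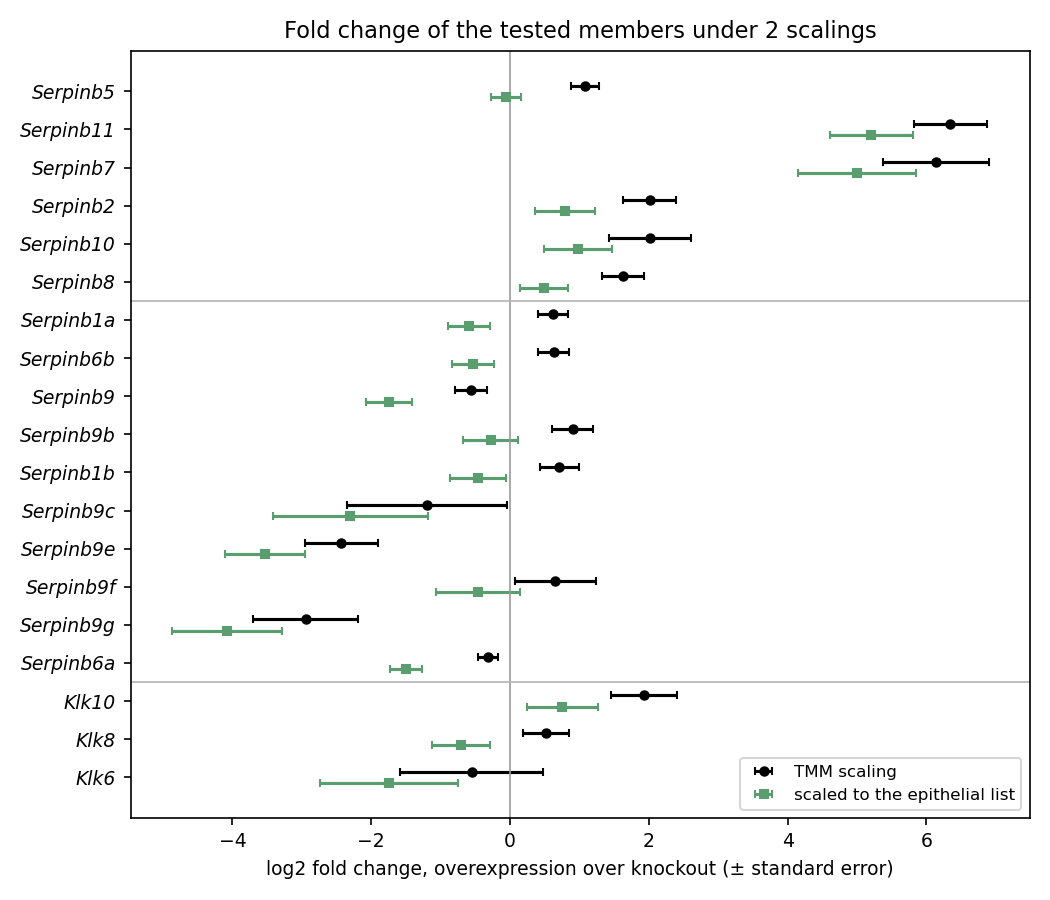
Log2 fold change (overexpression over knockout) with its standard error for the 19 tested members, with TMM scaling (black circles) and with scaling to the epithelial list (green squares). Serpinb11 and Serpinb7, which passed the low-count filter only through the overexpression libraries, stay near 5 under the second scaling, at 5.21 and 4.99. Serpinb5 moves to -0.057.

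The pair with the largest fitted rise among the members were Serpinb11 and Serpinb7, neighbours on chromosome 1. Serpinb11 (ENSMUSG00000026327, 107361198 to 107380475) is an epithelial serpin that in the mouse inhibits trypsin-like proteases. Counts, given here and below in the order of the replicates 1, 2 and 3, were 9, 4 and 14 for knockout and 1053, 330 and 877 for overexpression. Every overexpression library was far above every knockout library, and overexpression replicate 2 was the lowest of its group. The level went from 0.260 ± 0.126 to 21.8 ± 10.5 CPM (SD, n = 3 each), and the log2 fold change was 6.35 (SE 0.52, 81.3-fold, edgeR adjusted p = 3.49e-05). It was still 5.21 after epithelial scaling.

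Serpinb7 (ENSMUSG00000067001, 107399655 to 107452689), also called megsin, is an inhibitor of the upper epidermis whose loss in people causes a thickened skin of palms and soles. Its counts were 1, 0 and 5 in the knockout libraries and 191, 69 and 196 in the overexpression libraries. Knockout was at or near the floor of 3 counts, and overexpression replicate 2 was again the lowest of its group. The level with overexpression was 4.37 ± 1.82 CPM (SD, n = 3), and the fitted log2 fold change of 6.14 (SE 0.76, edgeR adjusted p = 0.000404) rests on few knockout counts. Leaving out knockout replicate 3 moved the mean of that group from 0.0554 to 0.0147 CPM and the log2 fold change to 7.84. Neither gene shares any 31-base word of its transcripts with another gene, so their counts do not depend on how reads of similar genes were divided.

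Serpinb2 and Serpinb10 adjoin on the same strand. Serpinb2 (ENSMUSG00000062345, 107511423 to 107535478) encodes plasminogen activator inhibitor type 2, which blocks urokinase. It had 282, 569 and 795 counts with knockout and 2331, 1219 and 3359 with overexpression. The groups did not overlap, with knockout replicate 1 lowest of all. The level rose from 16.3 ± 7.11 to 65.8 ± 22.3 CPM (SD, n = 3 each), and the log2 fold change was 2.01 (SE 0.38, 4.04-fold, edgeR adjusted p = 0.00413). Scaled to the epithelial list it was 0.79 (edgeR adjusted p = 0.107, with 2.73e-08 to 0.107 over the alternatives).

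Serpinb10 (ENSMUSG00000092572, 107529003 to 107549271), or bomapin, is known from blood-forming cells, and the annotation lists it as a polymorphic pseudogene. It had 719, 744 and 148 counts with knockout and 2298, 1083 and 3721 with overexpression. The groups did not overlap, and knockout replicate 3 was the lowest of all. The level rose from 16.6 ± 11 to 67.0 ± 28.9 CPM (SD, n = 3 each), and the log2 fold change was 2.02 (SE 0.59, edgeR adjusted p = 0.0309). That call was lost without overexpression replicate 1 (adjusted p = 0.0508, edgeR), without overexpression replicate 3 (0.0848) and with epithelial scaling (log2 fold change 0.98, adjusted p = 0.0825). It ran from 8.91e-06 to 0.0848 in all alternatives together. The exons of Serpinb2 and Serpinb10 share 291 bases on 1 strand, which is 12.4% of the exon length of Serpinb2 and 8.34% of that of Serpinb10, and reads from there could go to either gene.

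Serpinb8 (ENSMUSG00000026315, 107590006 to 107610484) encodes an inhibitor of furin and trypsin-like proteases that supports the adhesion of keratinocytes. Its counts were 286, 324 and 293 with knockout and 1091, 471 and 1362 with overexpression. The knockout libraries were close together and all lay under the overexpression libraries. The level rose from 9.04 ± 1.46 to 27.9 ± 10.4 CPM (SD, n = 3 each), and the log2 fold change was 1.63 (SE 0.30, edgeR adjusted p = 0.00349). After epithelial scaling the log2 fold change was 0.49 (edgeR adjusted p = 0.211, with 1.35e-06 to 0.211 over the alternatives).

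Serpinb5 (ENSMUSG00000067006, 106861173 to 106883348) encodes maspin, a serpin of epithelial cells that does not inhibit proteases and is studied as a tumour suppressor. It had 1427, 1306 and 1077 counts with knockout and 2333, 2189 and 3850 with overexpression. The groups did not overlap. The level rose from 38.2 ± 7.53 to 80.9 ± 14.4 CPM (SD, n = 3 each), and the log2 fold change was 1.08 (SE 0.20, edgeR adjusted p = 0.00349). After epithelial scaling it was -0.057 (edgeR adjusted p = 0.815, with 1.51e-05 to 0.815 over the alternatives), so that Serpinb5 rose by about as much as the epithelial list, whose median log2 fold change was 1.18.

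The remaining 6 genes of the chromosome 1 cluster lie between Serpinb5 and Serpinb11 and did not pass the filter. Serpinb3a to Serpinb3d are the mouse counterparts of the squamous cell carcinoma antigens, inhibitors of cysteine cathepsins and serine proteases. Serpinb3a and Serpinb3b had at most 3 and 4 counts in a library, all in knockout libraries, and Serpinb3c and Serpinb3d had none, which allows up to 3 counts or 0.0759 to 0.101 CPM in a library. Between 28.7% and 35.4% of their 31-base words occur in another gene. Serpinb12, an inhibitor of trypsin-like proteases, had at most 12 counts, and Serpinb13, which inhibits cathepsins K and L and is also called headpin, had at most 8. None of the 8 other annotated genes inside the cluster passed the filter.

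**Figure D3:**
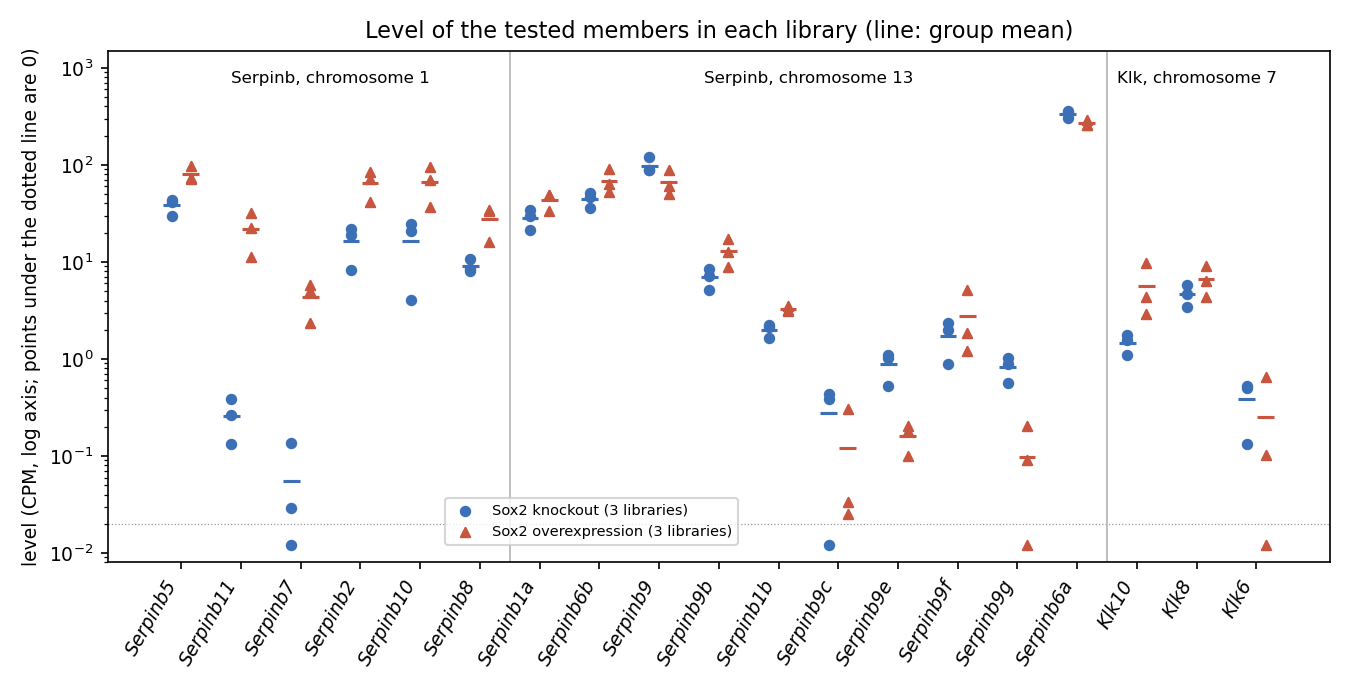
Level in CPM (log axis) of the 19 tested members in each library, knockout as blue circles and overexpression as red triangles, with group means as lines and libraries at 0 under the dotted line. Serpinb11 and Serpinb7 are near the bottom of the axis in the knockout libraries, and Serpinb6a is the highest member in every library.

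On chromosome 13 the members with most reads changed less. Serpinb6a (ENSMUSG00000060147, 33917918 to 34002794), an inhibitor of cathepsin G and other serine proteases in the cytoplasm, had 10459, 10748 and 12506 counts with knockout and 8482, 8593 and 10250 with overexpression. In CPM every overexpression library was lower, at 259, 291 and 259 against 307, 355 and 343, and the gap was small. The log2 fold change was -0.31 (SE 0.15) and did not pass the threshold (edgeR adjusted p = 0.139), and after epithelial scaling it was -1.50 (edgeR adjusted p = 0.000218, with 0.000218 to 0.353 over the alternatives). Of its 31-base words, 29.0% occur in other genes, 13.1% in Nqo2 on the other strand, and Nqo2 itself fell by 0.96 on the log2 scale (edgeR adjusted p = 0.00459).

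Serpinb9 (ENSMUSG00000045827, 33003250 to 33017957) encodes the inhibitor of granzyme B, which shields lymphocytes and some tumour cells from their own or from attacking granules. It had 2996, 2659 and 4358 counts with knockout and 2918, 1811 and 1993 with overexpression. Overexpression replicate 1, at 89.0 CPM, lay above knockout replicates 1 and 2, at 87.8 and 87.9 CPM. The log2 fold change was -0.56 (SE 0.23, edgeR adjusted p = 0.101). It passed the threshold without overexpression replicate 1 (-0.80, edgeR adjusted p = 0.0219) and after epithelial scaling (-1.74, edgeR adjusted p = 0.000756), with 0.000756 to 0.300 over the alternatives. Knockout replicate 3, the highest for Serpinb9, was also the highest for Gzmb, which encodes granzyme B and had 239, 414 and 4858 counts in the knockout libraries, and for the white blood cell list. Their part in the level of Serpinb9 was not tested.

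Serpinb1a (ENSMUSG00000044734, 32842092 to 32851185) encodes the cytoplasmic inhibitor of neutrophil elastase, cathepsin G and proteinase 3. It had 731, 901 and 1245 counts with knockout and 1601, 1437 and 1337 with overexpression. Knockout replicate 3 (34.1 CPM) and overexpression replicate 3 (33.8 CPM) overlapped. The log2 fold change of 0.62 (SE 0.22) did not pass the threshold (edgeR adjusted p = 0.0622, with 0.0178 to 0.172 over the alternatives) and was -0.59 after epithelial scaling. Its close relative Serpinb1b had 72, 50 and 81 counts with knockout and 114, 95 and 124 with overexpression, without overlap in CPM and with an edgeR adjusted p of 0.0869. Serpinb1c had at most 7 counts. The 3 genes share 8.28% to 11.8% of their 31-base words with other genes, and their summed counts gave a log2 fold change of 0.62 (edgeR adjusted p = 0.0528).

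Serpinb6b (ENSMUSG00000042842, 32965209 to 32979067), a relative of Serpinb6a, had 1576, 1084 and 1863 counts with knockout and 2942, 1563 and 2527 with overexpression. In CPM the groups did not overlap, though knockout replicate 3 (51.1) and overexpression replicate 2 (52.9) were close. Its log2 fold change of 0.63 (SE 0.22) did not pass the threshold (edgeR adjusted p = 0.0600, with 0.0143 to 0.191 over the alternatives), and it was -0.53 after epithelial scaling. Serpinb6c, Serpinb6d and Serpinb6e had at most 8, 4 and 10 counts. The summed counts of the 5 Serpinb6 genes gave -0.16 (edgeR adjusted p = 0.411).

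The relatives of Serpinb9 moved in both directions. Serpinb9b (ENSMUSG00000021403, 33027416 to 33041884), known in the mouse as an inhibitor of granzyme M, had 175, 214 and 311 counts with knockout and 565, 264 and 501 with overexpression. In CPM the groups were separate by a narrow gap, from 8.52 in knockout replicate 3 to 8.93 in overexpression replicate 2. The log2 fold change was 0.91 (SE 0.30, edgeR adjusted p = 0.0462). This call was lost without knockout replicate 1 or 2 (edgeR adjusted p = 0.119 and 0.110) and without overexpression replicate 1 or 3 (0.134 and 0.0897; 0.0109 to 0.527 over the alternatives), and the log2 fold change was -0.28 after epithelial scaling.

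Serpinb9e and Serpinb9g were the 2 members that fell. Serpinb9e (ENSMUSG00000062342, 33249612 to 33260850) had 35, 33 and 19 counts with knockout and 6, 6 and 4 with overexpression. Its log2 fold change was -2.43 (SE 0.52, edgeR adjusted p = 0.00763). Serpinb9g (ENSMUSG00000057726, 33484790 to 33496004) had 35, 17 and 32 counts with knockout and 3, 0 and 8 with overexpression, a log2 fold change of -2.94 (SE 0.75, edgeR adjusted p = 0.0178). Leaving out overexpression replicate 3 moved that group's mean of 0.0980 to 0.0458 CPM, and without overexpression replicate 1 the edgeR adjusted p was 0.0609 (0.000959 to 0.0609 over the alternatives). The knockout libraries lay above the overexpression libraries for both genes, which reached at most 1.09 CPM. Since 46.2% and 67.9% of their 31-base words occur in other genes, their identity is uncertain. The words of Serpinb9f, of which 87.3% are shared, are the least particular of any member. Serpinb9f had 80, 27 and 72 counts with knockout and 169, 55 and 48 with overexpression (edgeR adjusted p = 0.424), and its log2 fold change of 0.65 became -0.16 without overexpression replicate 1. Serpinb9c had at most 15 counts (edgeR adjusted p = 0.460) and Serpinb9d at most 5. The summed counts of the 7 Serpinb9 genes gave -0.39 (edgeR adjusted p = 0.229). Among 25 other genes inside the cluster, 4 were tested and 2 fell, Nqo2 and the uncharacterized gene Gm6093.

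Per kilobase of exon, Serpinb6a was the member with the highest level in both groups, at 61.9 ± 4.69 CPM per kb with knockout and 49.8 ± 3.38 with overexpression (SD, n = 3 each). With knockout it was followed by Serpinb9 (28.2 ± 5.22), Serpinb6b (19.6 ± 3.44), Serpinb5 (13.9 ± 2.74), Serpinb1a (12.4 ± 2.80), Serpinb2 (6.93 ± 3.03) and Serpinb10 (4.75 ± 3.15). Of these neighbours, Serpinb5 and Serpinb1a, and Serpinb2 and Serpinb10, differed by less than their SD. With overexpression Serpinb6b (30.4 ± 8.38), Serpinb5 (29.4 ± 5.22) and Serpinb2 (28.0 ± 9.51) came next and were within their SD of each other, as were Serpinb10 (19.2 ± 8.27), Serpinb9 (19.1 ± 5.70) and Serpinb1a (19.0 ± 3.74) after them. Serpinb11 followed at 9.98 ± 4.80 CPM per kb.

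The kallikreins were far lower. All 11 together held 6.24 to 9.04 CPM with knockout and 9.58 to 22.1 CPM with overexpression, the highest in overexpression replicate 3. Klk10 (ENSMUSG00000030693, chromosome 7, 43781035 to 43785410), a kallikrein of normal epithelium with little known protease activity, had 54, 33 and 64 counts with knockout and 143, 86 and 381 with overexpression. The groups did not overlap, and overexpression replicate 3 stood well above the others. The level went from 1.48 ± 0.344 to 5.64 ± 3.54 CPM (SD, n = 3 each), and the log2 fold change was 1.93 (SE 0.47, edgeR adjusted p = 0.0140). Without overexpression replicate 3 that group's mean fell to 3.64 CPM, and the log2 fold change to 1.31. The call was lost without knockout replicate 2 (edgeR adjusted p = 0.0557) and after epithelial scaling (log2 fold change 0.75, adjusted p = 0.193, with 0.000221 to 0.193 over the alternatives).

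Klk8, or neuropsin, a protease of the upper epidermis and of the brain, had 118, 141 and 210 counts with knockout and 143, 188 and 363 with overexpression. The groups overlapped, and the log2 fold change of 0.52 (SE 0.33) did not pass the threshold (edgeR adjusted p = 0.266). Its exons overlap those of 2310002F09Rik on the other strand over 382 bases. Klk6, a trypsin-like kallikrein, had at most 26 counts and an edgeR adjusted p of 0.714. The other 8 were not tested. Klk5, which starts the kallikrein cascade of the epidermis, and Klk4, an enzyme of enamel formation, had no counts in any library, while Klk7, the chymotrypsin-like enzyme of skin shedding, had at most 25 counts and Klk14 at most 56, both highest in overexpression replicate 3. Klk11 and Klk9 had at most 15 and 16 counts. Klk12 had 3, 2 and 8 counts and Klk13 2, 4 and 7 counts with knockout, and with overexpression Klk12 had none and Klk13 1 in all. In the edgeR test 0 Klk genes were lower, with 0 at an unadjusted p under 0.05 and 0 by DESeq2.

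**Figure D4:**
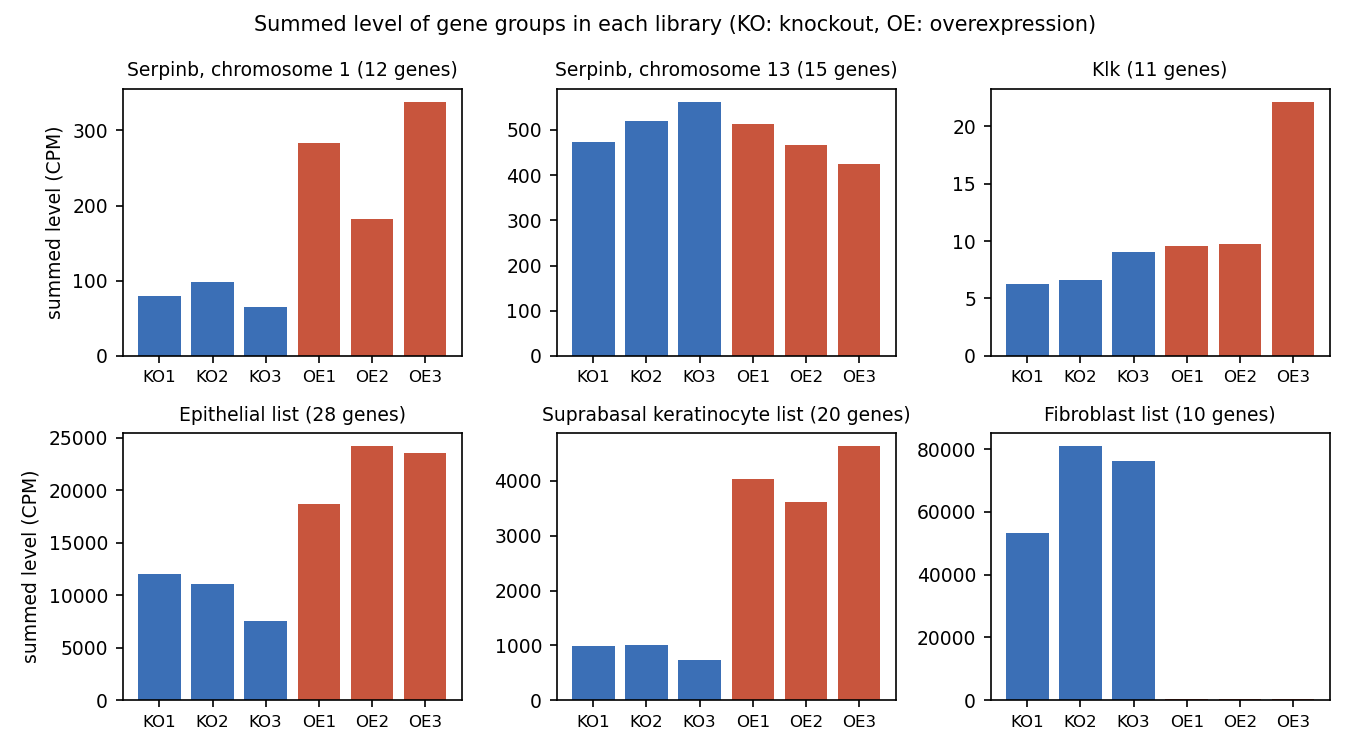
Summed level in CPM of the members by cluster and of 3 marker lists in each library, knockout (KO, blue) and overexpression (OE, red), with axes from 0 that differ between panels. The chromosome 1 Serpinb genes reach 182 to 338 CPM in the overexpression libraries, where the epithelial and suprabasal lists are also high, and the fibroblast list is at 246 to 388 CPM there against at least 53173 CPM with knockout.

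A list of 31 genes for granzymes, cathepsins, caspases and other proteases was drawn up around the targets of clade B serpins. Binding to these members was not checked gene by gene. Of the list 23 were tested, and 15 were lower, 0 higher and 8 not called in the edgeR test. Their median log2 fold change was -1.74, and over all tested genes 18% were lower and 13.6% higher. At an unadjusted p under 0.05, 1 was higher, Ctss, which encodes cathepsin S, with a log2 fold change of 1.45 (edgeR adjusted p = 0.0669), and DESeq2 called 1 higher. Ctsk, which encodes cathepsin K, a collagen-degrading enzyme of bone and connective tissue, fell from 304 ± 58.6 to 1.65 ± 0.275 CPM (SD, n = 3 each), and the log2 fold change was -7.52 (edgeR adjusted p = 1.06e-06). Gzmb, the target of Serpinb9, had 1, 0 and 1 counts for overexpression against the 239 to 4858 for knockout. The targets of Serpinb1a were close to 0 in both groups: Elane had at most 1 count, Ctsg at most 3 and Prtn3 at most 17 counts in a library. Plau, the urokinase that Serpinb2 blocks, had 9772, 7798 and 10979 counts with knockout and 6595, 7646 and 7827 with overexpression (log2 fold change -0.36, edgeR adjusted p = 0.129), and after epithelial scaling its log2 fold change was -1.55 (edgeR adjusted p = 0.00019). Furin, bound by Serpinb8, had a log2 fold change of 0.33 (edgeR adjusted p = 0.194), and -0.85 after epithelial scaling (edgeR adjusted p = 0.00361). That scaling moved the median of all tested genes to -1.18, with 74.4% of them lower. The fibroblast and the T and NK cell lists were also higher with knockout, as given above, and their part in the values of Ctsk and Gzmb was not tested. Gzmb, Ctss, Elane, Ctsg, Prtn3, Plau and Furin were chosen with their values known.

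Among 27 inhibitors of serine proteases outside clade B, 17 were tested, 3 higher and 9 lower, with a median of -1.42. Over all tested genes 13.6% were higher, 18% lower and 31.6% called in either direction. Spint2, a membrane-bound Kunitz inhibitor of matriptase and prostasin, rose from 117 ± 12.9 to 303 ± 76.2 CPM (SD, n = 3 each), and the log2 fold change was 1.37 (edgeR adjusted p = 0.00111), which was 0.20 after epithelial scaling (edgeR adjusted p = 0.402). Serpinh1, the collagen chaperone, fell by 6.94 on the log2 scale (edgeR adjusted p = 1.92e-06). Among 9 cysteine protease inhibitors, 5 were tested, 2 higher and 1 lower, with a median of 0.64. Cst6, cystatin M/E of the epidermis, had a log2 fold change of 0.97 (edgeR adjusted p = 0.0134; -0.22 after epithelial scaling). Cst7, a cystatin of lymphocytes, was at least 36.8-fold lower, against a floor of 3 counts in the shallowest overexpression library. That bound rests on a mean of 3.73 CPM in the knockout group, which was 1.40 CPM when replicate 3 was left out.

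Of 16 tested genes for membrane-bound and epidermal serine proteases, 7 rose, 2 fell and 7 were not called, with a median of 0.83. After epithelial scaling 5 were higher and 6 lower. Over all tested genes 13.6% were higher and 18% lower, and 1.85% and 74.4% after that scaling. Prss8, which encodes prostasin and is needed for the skin barrier, had 34, 46 and 33 counts with knockout and 1271, 565 and 583 with overexpression. Its log2 fold change was 4.41 (edgeR adjusted p = 9.69e-05), and 3.29 after epithelial scaling (edgeR adjusted p = 0.000116). Hpn, encoding hepsin, was at least 5.62-fold lower, against the same floor. Of the receptors and substrates of the kallikreins and of urokinase, 13 were tested, 5 higher and 3 lower, with a median of 0.53. Lor, encoding loricrin of the cornified envelope, rose by a log2 fold change of 4.20 (edgeR adjusted p = 0.000195), and Il1b, a cytokine that proteases activate, fell by 4.24 on the log2 scale (edgeR adjusted p = 5.23e-05).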

How the data were processed

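RNA-seq counts of 6 libraries were analysed. The authors deposited raw counts, whole numbers per gene with 1 column per library. The submitters' processing notes name kallisto 0.44.0 and the build mm10 without their roles. The annotation, the strand setting and any rounding are not given in the sources used here, so reads of similar or overlapping genes could have been divided in more than one way. Columns were matched to samples by the description in the labels. Of 55481 rows, 96 name no mouse gene (at most 2.23e-05% of a library) and were left out. Symbols came from GENCODE M21 (55144 IDs).

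Genes were filtered (filterByExpr, minimum count 10, minimum total 15), which kept 18504, scaled by TMM, and compared with the edgeR 4.0.16 quasi-likelihood test in R 4.3.3, with the group as the only term. P-values were adjusted over all tested genes (Benjamini-Hochberg, threshold 0.05). Standard errors are the log2 fold change over the root of F. In counts simulated for these 18504 genes with 200 changed, 65 of 88 genes changed 4-fold were recovered and 3 of 100 calls were false. The data gave 5848 calls, so these rates need not carry over. Intervals of 3 counts for a count of 0 cover counting error only. Alternatives were RLE and upper-quartile scaling, scaling to the epithelial list, no filter, robust dispersion, a replicate block, DESeq2 1.42.0, summed counts of similar genes, and leaving out each library. No 2 libraries of a group were alike within sampling noise (chi-square per degree of freedom at least 43.8). Shared sequence was counted as 31-base words of GENCODE M21 transcripts.

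Members, lists, tests and promoter patterns were chosen with earlier results of these data known. Every member is named. Counts and full statistics are given for members past the threshold and for others with a mean of at least 10 CPM, and in each list of related genes the gene with the smallest p-value among those past the threshold in each direction is named. The counts of other members and the genes named beside their partners were added after their values were seen. No batch or date is in the labels.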

Additional observations from a re-analysis of the deposited data

Results flagged for a closer look

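The count table has rows that name no mouse gene, which entered no comparison. Of these only mCherry, a fluorescent reporter, had counts, at most 8 in a library (knockout replicate 3), above the 3 counts that a count of 0 allows. The labels do not mention this reporter.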

How the results depend on the processing

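Over the alternatives, the log2 fold change of Sox2 kept its call, with 6.33 to 6.86 when 1 library was left out. The count of higher Serpinb genes (7) was 5 to 8 and that of lower ones (2) stayed 2 when 1 library was left out. The count of higher Klk genes (1) was 0 to 1, with 0 without knockout replicate 2. For all tested genes the higher count (2519) was 1446 to 2599, with 1446 without knockout replicate 2 and 1610 without knockout replicate 3. Scaled to the epithelial list, 2 Serpinb genes were higher and 4 lower, 0 Klk genes were higher, and 343 of all tested genes were higher and 13758 lower. That scaling also gave 0 higher inhibitors of serine proteases outside clade B, 0 higher and 3 lower cysteine protease inhibitors, 6 lower membrane-bound proteases and 3 higher receptors and substrates. Without the low-count filter, 4 cysteine protease inhibitors and 5 receptors or substrates were lower. In the list drawn up around the targets of clade B serpins 1 protease was then higher, and DESeq2 also called 1 of that list higher. With 1 library left out, higher cysteine protease inhibitors numbered 0 to 2 and lower ones 1 to 3. Lower receptors and substrates then numbered 3 to 5, and higher proteases of the clade B list 0 to 1. Directions turned with epithelial scaling for Klk8 (log2 fold change -0.71), Serpinb1a (-0.59), Serpinb1b (-0.46), Serpinb5 (-0.057), Serpinb6b (-0.53), Serpinb9b (-0.28) and Serpinb9f (-0.46), and without overexpression replicate 1 for Klk6 (0.023) and Serpinb9f (-0.16). With 1 library left out, Klk6 ran from -2.87 to 0.023 and Serpinb9f from -0.16 to 1.03. This scaling divides by genes that were higher with overexpression, which lowers every fold change by construction. For other changes the cause was not tested. The replicate numbers did not pair the libraries: correlations of same-numbered deviations were 0.055, 0.073 and -0.048, and 3 of 6 libraries correlated best with their own number. With the replicate number as a block, 5593 genes were called in place of 5848, Serpinb6b passed the threshold (adjusted p = 0.0311, edgeR) and Serpinb9b did not (adjusted p = 0.0572, edgeR). At these depths a member at 0 may still have up to 0.101 CPM.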
